A study of Homo sapiens with 16 samples.

Results

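The genes described here are those of cholesterol synthesis and sterol control in HepG2, a human hepatoma cell line. They were chosen by name, as the probe sets whose platform gene symbol is 1 of 31 genes: 7 enzymes that lead to farnesyl diphosphate, 11 enzymes from squalene to cholesterol, 7 genes of the SREBP control system, 4 genes of sterol transport and esterification, and 2 LXR receptors. The rule uses no measured value. Of the 31 genes, 28 had at least 1 probe set carrying their symbol alone, 47 probe sets of the 22215 outside the array controls. Of those 28 genes, 27 were bright enough to be tested, among 8109 tested genes in all. CYP51A1, the lanosterol demethylase gene, has no value because both of its 2 probe sets also carry the symbol LRRD1, and FDFT1 and NR1H2 were not analysed here. INSIG1 lay below the brightness filter and is described by its signals only.

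The study asked how the enzyme GPI-PLD, a phospholipase that cleaves the glycosylphosphatidylinositol anchor of membrane proteins, alters gene expression. There were 4 groups with 4 arrays each: HepG2 cells given the GPI-PLD adenovirus for 12 h, the same for 6 h, cells given the LacZ (beta-galactosidase) control adenovirus for 12 h, and the same for 6 h. Every group therefore carried an adenovirus, and cells without virus were not analysed here. The labels give neither the virus dose nor the sterol and serum content of the medium, and they leave unsaid whether replicate arrays stand for separate cultures. The p-values therefore reflect only the spread from array to array, which may be technical.

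Liver cells build cholesterol from acetyl-CoA through mevalonate, isoprenoid diphosphates, squalene and lanosterol. When sterols in the endoplasmic reticulum run low, SCAP escorts the SREBP transcription factors to the Golgi, where proteases release the active part that switches on the synthesis genes. When sterols are plentiful, the INSIG proteins hold SCAP and SREBP in the endoplasmic reticulum. NPC1 and NPC2 carry cholesterol out of the lysosome, SOAT1 stores it as esters, and the LXR receptors sense oxysterols.

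Array medians lay between 304.5 and 377.6 signal units. With GPI-PLD every median at 12 h (338.1 to 377.6) was above every one at 6 h (313.4 to 337.1). With LacZ they overlapped, at 323 to 352.5 and 304.5 to 344.7. The mean correlation of an array with the others of its group was 0.938 to 0.939 in the GPI-PLD 12 h group, below the 0.948 to 0.958 of the other 3 groups. All 8 hepatocyte markers were above the filter, with mean signals of 4019 to 85990, whereas 3 of 5 fibroblast, 1 of 4 endothelial and 1 of 4 leukocyte markers were, with no marker of these 3 lists above a mean of 774. For GPLD1, which encodes GPI-PLD, 0 of 5 probe sets passed between the viruses at either time. At 12 h one of its 2 brighter probe sets read 291 ± 53.7 with the GPI-PLD virus and 262 ± 109.8 with LacZ (mean ± SD, n = 4), and at 6 h 249 ± 61.7 with GPI-PLD and 307 ± 101 with LacZ. Its log2 differences were 0.18 ± 0.30 and -0.22 ± 0.30 (SE), and those of the other were 0.12 ± 0.32 and 0.02 ± 0.32. The dimmest of the 5 read 71.5 ± 31.3 with GPI-PLD at 6 h, against 25.1 ± 14.1 with LacZ, far under the brightness filter of 208.5. Its log2 differences were 0.60 ± 0.22 at 6 h (unadjusted p = 0.0122, the 1 of the 5 under 0.05, and adjusted p = 0.9997 over all probe sets) and 0.07 ± 0.22 at 12 h. Which stretch of GPLD1 the virus carried is not in the labels, so these probe sets do not check the label. In bulk RNA, fewer cells of a kind and less RNA per cell cannot be told apart.

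Between 12 h and 6 h, 4 of the 27 tested genes changed when both viruses were averaged. INSIG2, IDI1 and SQLE fell and NPC1 rose, by 1.14-fold to 1.34-fold on the scale of signal + 63, on which all fold and log2 differences here are given. Changes were called with limma at a Benjamini-Hochberg adjusted p under 0.05 over all 8109 genes. These 4 are 14.8% of the 27, and the background was 16.2% of all tested genes, 7.78% higher and 8.4% lower at 12 h. The median log2 difference of the 27 genes was -0.09, against 0.02 over all tested genes, with 10 genes higher and 17 lower at 12 h. The share of sterol genes called was thus close to that of the array as a whole. The summed signal of the 4 endothelial markers, of which 1 was above the filter, ranged higher at 12 h with overlap. It was 524.6 to 745 against 187.3 to 551.6 at 6 h with GPI-PLD, and 600.2 to 832.8 against 184.1 to 652 with LacZ. The hepatocyte sums also ranged higher at 12 h with overlap. They were 349785 to 397043 against 339627 to 377798 at 6 h with GPI-PLD, and 337014 to 373057 against 321618 to 359778 with LacZ. The fibroblast and leukocyte sums overlapped between the times in both viruses. Fibroblast sums were 1144.9 to 2152.9 against 1051 to 1695.5 with GPI-PLD, and 1308.9 to 1782.7 against 1566.3 to 2002 with LacZ. Leukocyte sums were 349.4 to 1001.6 against 644 to 994.2 with GPI-PLD, and 677.4 to 855 against 813.5 to 926.5 with LacZ. The GAPDH 3′ to 5′ ratio, a measure of RNA quality, was 0.887 to 1.12 at 12 h against 0.891 to 1.001 at 6 h with GPI-PLD, and 0.928 to 1.07 against 0.864 to 0.952 with LacZ. The part of the marker sums or of RNA quality in the differences with time was not tested.

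Promoters of 3 of these genes, INSIG2, IDI1 and NPC1, are shown because their transcripts passed the test with time. That of SQLE, which also passed, is not reported here. Each is the RefSeq window of 300 bases that ends 50 bases inside the gene (GRCh38.p14), 5′ to 3′ on the gene's own strand. Capitals mark GGGCGG or its reverse complement CCGCCC, the Sp1 box. INSIG2 lies on the plus strand with its window at chr2:118088221-118088520, and IDI1 and NPC1 lie on the minus strand with windows at chr10:1056655-1056954 and chr18:23586457-23586756.
INSIG2: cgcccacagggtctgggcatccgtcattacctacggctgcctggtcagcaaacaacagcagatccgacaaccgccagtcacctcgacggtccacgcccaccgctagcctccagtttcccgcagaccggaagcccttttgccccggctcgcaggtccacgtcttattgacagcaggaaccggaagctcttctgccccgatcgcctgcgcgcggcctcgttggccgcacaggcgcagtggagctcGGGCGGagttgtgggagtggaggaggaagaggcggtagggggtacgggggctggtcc
IDI1: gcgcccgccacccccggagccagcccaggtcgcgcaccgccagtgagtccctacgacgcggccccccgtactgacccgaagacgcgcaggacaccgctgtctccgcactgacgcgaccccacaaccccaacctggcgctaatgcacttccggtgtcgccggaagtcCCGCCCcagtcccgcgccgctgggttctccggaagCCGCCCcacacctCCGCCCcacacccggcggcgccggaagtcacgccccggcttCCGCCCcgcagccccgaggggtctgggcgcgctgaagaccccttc
NPC1: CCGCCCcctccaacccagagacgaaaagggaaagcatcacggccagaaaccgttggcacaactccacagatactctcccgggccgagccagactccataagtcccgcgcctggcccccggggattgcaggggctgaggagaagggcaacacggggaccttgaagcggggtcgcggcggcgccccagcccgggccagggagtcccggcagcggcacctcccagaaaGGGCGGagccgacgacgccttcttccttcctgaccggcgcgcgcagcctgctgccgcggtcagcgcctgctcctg

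These windows held 1, 4 and 2 Sp1 boxes in INSIG2, IDI1 and NPC1. Of the other motifs searched on both strands, TCACNCCAC (the core of a sterol regulatory element), CCAAT (the NF-Y box) and TGATGNAA (a C/EBP-ATF core), none had a match in these 3 windows. Windows of 25 of the sterol genes could be matched by symbol. CCAAT was present in 16 of them (64%), against 34.6% of all 35116 promoters and 38.0% of the 6711 promoters of tested genes. GGGCGG was present in 21 (84%), against 45.0% and 68.9%. TCACNCCAC was found in 1 window, that of SREBF2 (4%), against 1.13% and 1.06%, and TGATGNAA in 0, against 3.62% and 1.82%. SREBP, NF-Y and Sp1 sites are known to act together at several cholesterol genes, but a match of letters is a description of the window and not a site of binding.

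INSIG2 encodes the anchor protein of the endoplasmic reticulum that retains SCAP and SREBP. Its signals were 2243.3, 2635.4, 2648.4 and 2288.9 on the GPI-PLD arrays at 12 h, against 3293.6, 3224.5, 2430.7 and 3131.7 at 6 h with the same virus. The LacZ arrays read 2768.8, 2334, 2783.9 and 2664 at 12 h, against 3785.9, 3965.8, 3730.7 and 4201.2 at 6 h. The 4 LacZ arrays at 12 h all lay below the 4 at 6 h, while with GPI-PLD replicate 3 at 6 h lay among the 12 h arrays. Of all tested genes, 12.9% had LacZ groups that did not overlap, 6.7% above and 6.25% below at 12 h. INSIG2 fell by 0.42 ± 0.07 on the log2 scale with both viruses averaged (SE, 1.34-fold, limma adjusted p = 0.0002). In GPI-PLD cells the log2 difference was -0.29 ± 0.10 (adjusted p = 0.0845), and it passed there without replicate 3 of GPI-PLD 6 h (adjusted p 0.0213). In LacZ cells INSIG2 fell 1.48-fold (log2 -0.56 ± 0.10, adjusted p = 0.000983). There 2 of the 27 genes passed, both lower at 12 h (7.41%, against a background of 6.89%, 3.64% higher and 3.26% lower). The averaged and the LacZ calls of INSIG2 held in every alternative that was run. The gene lies at chr2:118088471-118110997 (GRCh38.p14).

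IDI1 encodes the isomerase that turns isopentenyl diphosphate into dimethylallyl diphosphate, the step before farnesyl diphosphate is built. Its signals were 9211.6, 11384.7, 9748.1 and 7610.9 on the GPI-PLD arrays at 12 h, against 10940.9, 12281.2, 12696.2 and 12011.9 at 6 h with the same virus. With the LacZ virus the signals were 8782, 8691.6, 9117.4 and 10843.3 at 12 h, against 10179.5, 11075.1, 14939.9 and 13813.4 at 6 h. In each virus a single 12 h array reached above the lowest 6 h array. IDI1 fell by 0.38 ± 0.08 on the log2 scale with both viruses averaged (1.3-fold, adjusted p = 0.00261). The log2 difference was -0.35 ± 0.12 with GPI-PLD (adjusted p = 0.0677) and -0.40 ± 0.12 with LacZ (adjusted p = 0.039). A second IDI1 probe set read 6898, 8164.5, 7087.3 and 6675.1 on the GPI-PLD arrays at 12 h, against 8552.6, 9274.6, 10235.1 and 10094.8 at 6 h. With LacZ the same probe set read 7264.6, 7579.8, 8120.9 and 7748.9 at 12 h, against 8543.4, 9022.4, 11427.9 and 9505.7 at 6 h. On it every 12 h array lay below every 6 h array of the same virus. Its averaged log2 difference was -0.36 ± 0.07 (adjusted p = 0.001 over all 22215 probe sets). Both are _x_at probe sets, whose probes may also bind other transcripts. The averaged call held in every alternative. A GPI-PLD call was gained without replicate 2 of GPI-PLD 12 h or 3 of LacZ 6 h (adjusted p 0.0205 to 0.0462), with the mean of probe sets (0.026) and with array weights (0.0355). The LacZ call was lost without replicate 1, 2 or 3 of LacZ 12 h or 3 or 4 of LacZ 6 h (adjusted p 0.0887 to 0.141). Quantile normalization (adjusted p 0.0691), no filter (0.0587) and eBayes without trend and robust (0.123) also ended the LacZ call. The gene lies at chr10:1039152-1056704.

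SQLE encodes squalene epoxidase, a rate-limiting enzyme after HMG-CoA reductase. Its signals were 12384.2, 12488.9, 13552.9 and 10137.7 on the GPI-PLD arrays at 12 h, against 13169.4, 15528.5, 14681 and 14734 at 6 h with the same virus. LacZ cells gave 12629, 12790.4, 13100.2 and 13876.9 at 12 h, against 13981.1, 13547.5, 14070.8 and 14648.1 at 6 h. Most 12 h arrays were lower, and in each virus 1 array at 12 h exceeded the lowest at 6 h. SQLE fell by 0.18 ± 0.06 on the log2 scale with both viruses averaged (1.14-fold, adjusted p = 0.0307). In GPI-PLD cells, where 2 of the 27 genes passed (7.41%, 1 higher and 1 lower, against a background of 9.64%, 4.59% higher and 5.06% lower), the log2 difference was -0.26 ± 0.08 (adjusted p = 0.0416), and in LacZ cells it was -0.10 ± 0.08 (adjusted p = 0.542). Both other SQLE probe sets were lower at 12 h in both viruses as well, at averaged log2 differences of -0.18 ± 0.07 and -0.28 ± 0.14. Among all 22215 probe sets none of the 3 passed, with adjusted p-values of 0.0607, 0.13 and 0.305. The averaged call was lost under quantile normalization (adjusted p = 0.169), with eBayes without trend and robust (0.0843) and without replicate 4 of GPI-PLD 12 h or 2, 3 or 4 of GPI-PLD 6 h or 1 or 2 of LacZ 12 h or 4 of LacZ 6 h (adjusted p 0.0525 to 0.0708). The GPI-PLD call was lost under those settings, with no filter and in a fit of the 8 arrays compared (adjusted p 0.0565 to 0.113), and without replicate 1 or 4 of GPI-PLD 12 h or 2, 3 or 4 of GPI-PLD 6 h or 2 or 3 of LacZ 12 h (adjusted p 0.0506 to 0.157). The gene lies on chromosome 8.

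**Figure D1:**
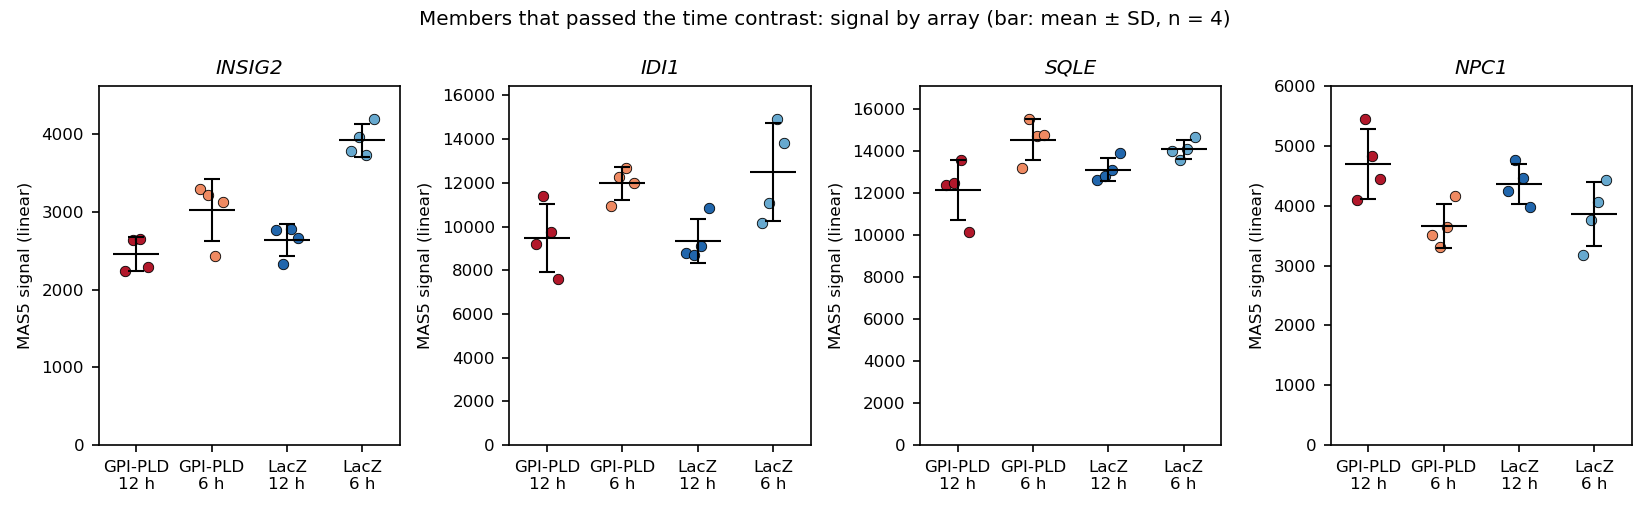
MAS5 signal (linear) of INSIG2, IDI1, NPC1 and SQLE on each array, by virus and time; points are arrays and bars are the mean ± SD of 4. INSIG2 in LacZ cells shows no overlap between 12 h (2334 to 2783.9) and 6 h (3730.7 to 4201.2), and NPC1 has its highest mean, 4706, in GPI-PLD cells at 12 h.

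NPC1 encodes the membrane protein that exports cholesterol from lysosomes. It alone among the 27 genes passed the test with time as higher at 12 h. Its signals were 4091.7, 5457.4, 4835.4 and 4441 on the GPI-PLD arrays at 12 h, against 3513.1, 3317.3, 3647.3 and 4166.3 at 6 h with the same virus. Under LacZ they were 4248, 4761.1, 4457.6 and 3983.5 at 12 h, against 3173.6, 3769.1, 4059.1 and 4435.1 at 6 h. The GPI-PLD groups overlapped by 1 array each, and the LacZ groups overlapped more widely. NPC1 rose by 0.27 ± 0.08 on the log2 scale with both viruses averaged (1.2-fold, adjusted p = 0.0174). The log2 difference was 0.35 ± 0.11 in GPI-PLD cells (adjusted p = 0.0396) and 0.18 ± 0.11 in LacZ cells (adjusted p = 0.375). A second NPC1 probe set, below the filter with a mean signal of 59.9, was lower at 12 h, at an averaged log2 difference of -0.37 ± 0.21, so that the mean of both probe sets gave -0.049 (adjusted p = 0.802). The averaged call held without each array in turn, and the GPI-PLD call was lost without replicate 2, 3 or 4 of GPI-PLD 12 h or 1, 2 or 3 of GPI-PLD 6 h (adjusted p 0.0512 to 0.125). That call also ended with 75th percentile scaling, no filter or eBayes without trend and robust (adjusted p 0.0576 to 0.0933). The gene lies at chr18:23506184-23586506.

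With both viruses averaged, 1 of the 7 genes of the mevalonate steps fell at 12 h (IDI1), 0 rose and 6 did not pass. That share is 14.3%, against 16.2% of all tested genes. HMGCS1, the synthase that makes HMG-CoA, came nearest to the threshold among those 6. Its signals were 2964.7, 2572.6, 3584.1 and 3099.3 on the GPI-PLD arrays at 12 h, against 4138.1, 3295.6, 4359.4 and 4637 at 6 h with the same virus. The LacZ arrays read 2803, 3562.9, 4233.1 and 3911.3 at 12 h, against 3124, 3789, 4705.6 and 3665.1 at 6 h. Of the 4 GPI-PLD arrays at 12 h, 3 lay below all 4 at 6 h, and the LacZ groups overlapped. The log2 difference was -0.42 ± 0.14 in GPI-PLD cells (adjusted p = 0.0565) and -0.07 ± 0.14 in LacZ cells (adjusted p = 0.833). A GPI-PLD call was gained without replicate 3 of GPI-PLD 12 h or 2 of GPI-PLD 6 h or 1 of LacZ 12 h or 1 or 3 of LacZ 6 h (adjusted p 0.026 to 0.0493), with the 60th percentile filter (0.0434) and in a fit of the 8 arrays compared (0.0438). An averaged call, at 0.0895 with all arrays, was gained without replicate 2 of GPI-PLD 6 h or 1 of LacZ 6 h (adjusted p 0.0405 to 0.0459).

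The other enzymes of these steps differed less between the times. FDPS, which makes farnesyl diphosphate, had log2 differences of 0.16 ± 0.07 with GPI-PLD and -0.00 ± 0.07 with LacZ, and its arrays are given with the virus comparison. ACAT2, the thiolase that joins acetyl-CoA units, had mean signals of 12769 ± 1017 in GPI-PLD cells at 12 h and 13754 ± 771 at 6 h, and of 13160.2 ± 395 in LacZ cells at 12 h and 12974 ± 424 at 6 h (SD, n = 4). MVK, mevalonate kinase, had 2135 ± 368 and 2512 ± 222 in GPI-PLD cells at 12 h and 6 h, and 2318 ± 166 and 2379 ± 331 in LacZ cells. All 3 of its probe sets were lower at 12 h in both viruses, without passing. PMVK, phosphomevalonate kinase, had 614 ± 50.7 and 779 ± 110.0 in GPI-PLD cells at 12 h and 6 h, and 730.3 ± 91.6 and 725 ± 238 in LacZ cells. It alone among the 27 genes had GPI-PLD arrays that all lay at 12 h below those at 6 h, and its log2 difference was -0.31 ± 0.18 (adjusted p = 0.311). Of all tested genes, 15.9% had GPI-PLD groups that did not overlap, 8.04% above and 7.86% below at 12 h. MVD, the decarboxylase that makes isopentenyl diphosphate, had 976 ± 136 and 906 ± 56.3 in GPI-PLD cells at 12 h and 6 h, and 969 ± 114 and 896 ± 173 in LacZ cells. MVD was slightly higher at 12 h in both viruses, by 0.09 in GPI-PLD and 0.12 in LacZ cells on the log2 scale.

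From squalene to cholesterol, 1 of 9 tested genes fell (SQLE), 0 rose and 8 did not pass with both viruses averaged. That share is 11.1%, against 16.2% of all tested genes. TM7SF2, a sterol reductase that removes the double bond left by lanosterol demethylation, had signals of 1357, 1499, 1366.9 and 1600 on the GPI-PLD arrays at 12 h, against 1422.1, 1509.6, 1790.5 and 1287 at 6 h with the same virus. With the LacZ virus the signals were 1655.7, 1629.8, 1725.3 and 2072.4 at 12 h, against 1479.9, 1363, 1550.4 and 908.3 at 6 h. Every LacZ array at 12 h lay above every one at 6 h, and the GPI-PLD groups overlapped. The log2 difference was -0.04 ± 0.14 with GPI-PLD (adjusted p = 0.916) and 0.42 ± 0.14 with LacZ (adjusted p = 0.0814).

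LSS, which closes squalene epoxide to lanosterol, had mean signals of 3212 ± 204 and 3224 ± 258 in GPI-PLD cells at 12 h and 6 h, and of 3371 ± 175 and 3207 ± 643 in LacZ cells. MSMO1, the sterol methyl oxidase, had 10127 ± 821 and 11167 ± 292 in GPI-PLD cells, and 10028 ± 470.0 and 10815 ± 1004 in LacZ cells. MSMO1 was lower at 12 h in both viruses, by an averaged log2 difference of -0.12 ± 0.06 (adjusted p = 0.14). Its partners in removing methyl groups at carbon 4 of the sterol ring were also lower at 12 h in both viruses without passing. NSDHL had 1647 ± 178 and 1885 ± 275 in GPI-PLD cells at 12 h and 6 h, and 1635 ± 259 and 1706 ± 272 in LacZ cells. HSD17B7 had 3637 ± 66.5 and 3826 ± 374 in GPI-PLD cells, and 3488 ± 411 and 3782 ± 557 in LacZ cells. It was read by an _x_at probe set, whose probes may also bind other transcripts.

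The last enzymes varied in precision. EBP, the sterol isomerase, had the widest spread of its role on its brightest probe set. That probe set read 4392 ± 1464 and 4313 ± 1646 in GPI-PLD cells at 12 h and 6 h, and 3928 ± 418 and 5186 ± 1430.0 in LacZ cells. The other EBP probe sets, both above the filter, were lower at 12 h in both viruses without passing. Their averaged log2 differences were -0.21 ± 0.12 and -0.17 ± 0.09, against -0.17 ± 0.21 on the brightest. SC5D, the sterol desaturase, had 7474 ± 742 and 7024 ± 809 in GPI-PLD cells, and 7823 ± 470.3 and 6969 ± 1433 in LacZ cells. SC5D was higher at 12 h in both viruses, by 0.09 in GPI-PLD and 0.18 in LacZ cells on the log2 scale. DHCR7, the reductase of the final step of the Kandutsch-Russell branch, had an averaged log2 difference of -0.10 ± 0.07 (adjusted p = 0.405), and its arrays are given with the virus comparison.

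In the SREBP control group, 1 of 6 tested genes fell (INSIG2), 0 rose and 5 did not pass with both viruses averaged. That share is 16.7%, against 16.2% of all tested genes. SREBF1 had an averaged log2 difference of 0.02 ± 0.20, and its arrays are given with the virus comparison. SREBF2, the SREBP most tied to cholesterol genes, had mean signals of 1439 ± 208 and 1304 ± 151 in GPI-PLD cells at 12 h and 6 h, and of 1409.9 ± 222 and 1202 ± 195 in LacZ cells. Both of its probe sets were higher at 12 h in both viruses, at averaged log2 differences of 0.18 ± 0.10 and 0.29 ± 0.19, without passing. SCAP, the escort protein, had 1150.2 ± 88.2 and 998 ± 97.8 in GPI-PLD cells, and 1041 ± 107 and 1015 ± 194 in LacZ cells. The protease genes MBTPS1 and MBTPS2 were lower at 12 h in both viruses. MBTPS1, the site-1 protease, had 1487 ± 428 and 1643 ± 202 in GPI-PLD cells, and 1659.8 ± 293 and 1772 ± 172 in LacZ cells. MBTPS2, the site-2 protease, had 812 ± 237 and 994 ± 204 in GPI-PLD cells, and 970.1 ± 165 and 1004 ± 179 in LacZ cells. Neither passed, with averaged log2 differences of -0.14 ± 0.11 and -0.17 ± 0.14.

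INSIG1, the other INSIG gene and itself a well known SREBP target, was dim: its 3 probe sets had mean signals of 178, 98.5 and 60.7, all under the filter of 208.5. The brightest read 302.2, 164.4, 101.4 and 256.6 on the GPI-PLD arrays at 12 h, against 140.9, 167.9, 163.8 and 176.6 at 6 h with the same virus. In LacZ cells it read 24.8, 226.7, 105.7 and 291.5 at 12 h, against 160.5, 193, 157.4 and 222.2 at 6 h. The groups overlapped, and the 12 h arrays of both viruses spread widely. The 3 probe sets disagreed in direction, with averaged log2 differences of -0.06 ± 0.27, 0.74 ± 0.33 and 0.22 ± 0.24, and none passed among all probe sets. No direction can be given for INSIG1 here.

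In transport and esterification, 1 of 4 genes rose (NPC1), 0 fell and 3 did not pass with both viruses averaged. With so few genes that 1 call is 25%, against 16.2% of all tested genes. NPC2, the soluble lysosomal partner of NPC1, had mean signals of 5814 ± 597 and 5723 ± 400.5 in GPI-PLD cells at 12 h and 6 h, and of 5806 ± 582 and 6135 ± 819.7 in LacZ cells. Its averaged log2 difference was -0.03 ± 0.07 (adjusted p = 0.844). SOAT1, which esterifies cholesterol for storage, had 613 ± 210.3 and 653 ± 107 in GPI-PLD cells, and 665 ± 125 and 722 ± 141 in LacZ cells. OSBP, an oxysterol-binding lipid transfer protein, had 1250.5 ± 212 and 1262 ± 57.8 in GPI-PLD cells, and 1381 ± 143 and 1222 ± 210.0 in LacZ cells. The LXR gene that was tested, NR1H3, did not pass, and had 662 ± 179 and 695 ± 59.5 in GPI-PLD cells, and 643 ± 102 and 636 ± 9.7 in LacZ cells.

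**Figure D2:**
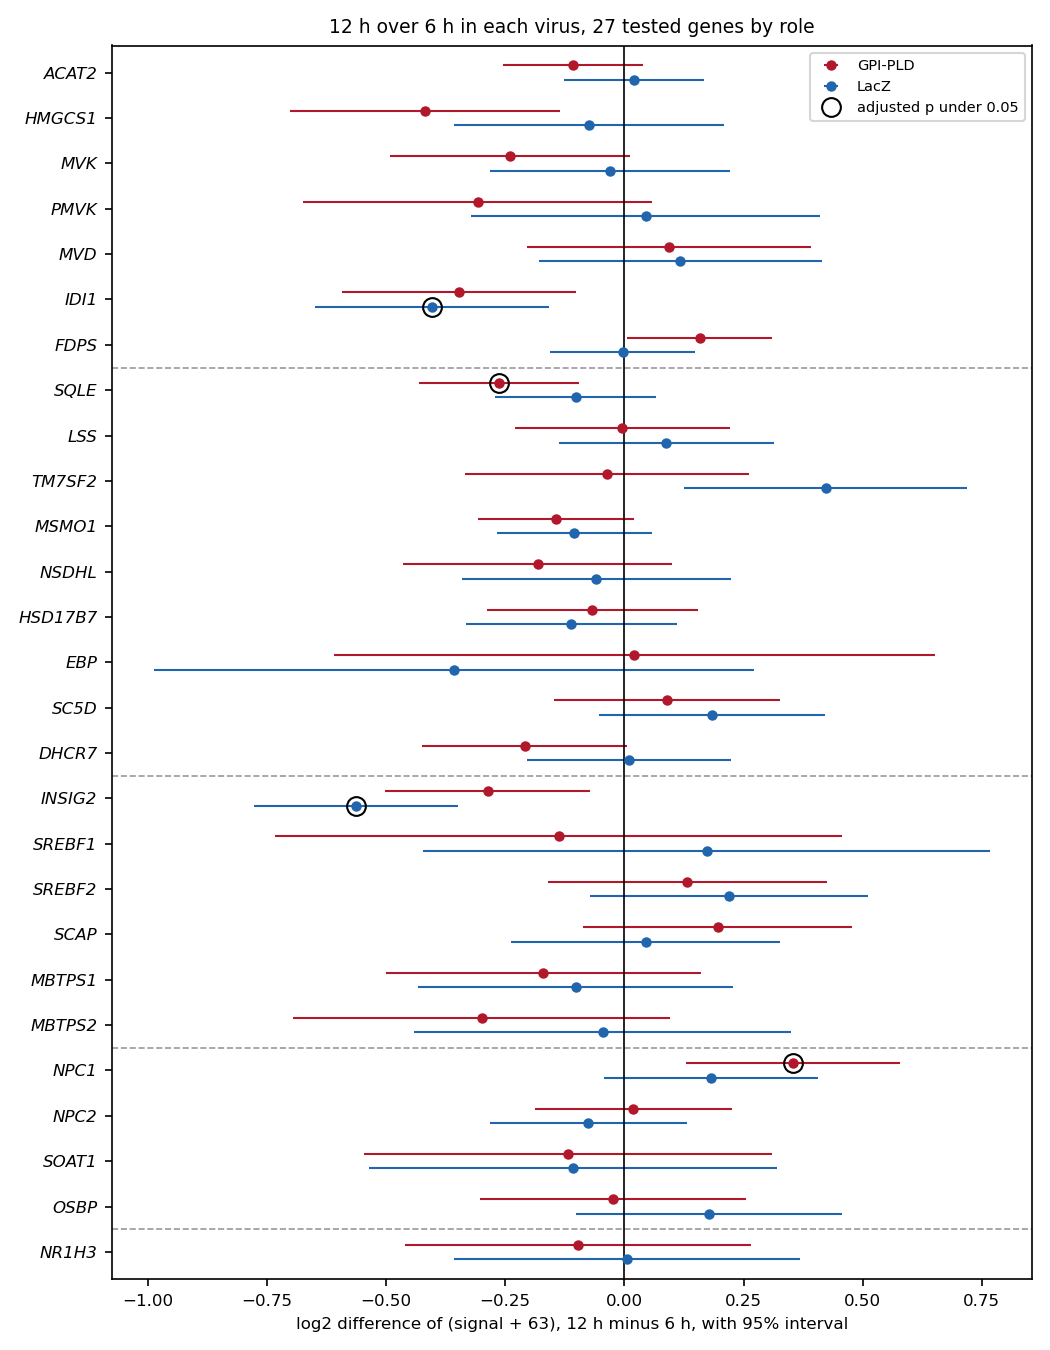
Log2 difference of signal + 63 at 12 h over 6 h in GPI-PLD and in LacZ cells, with 95% intervals from limma, for the 27 tested genes in order of role (dashed lines divide the roles); rings mark adjusted p under 0.05. In GPI-PLD cells 19 of 27 points lie below 0, in LacZ cells 14, and 2 are ringed in each virus.

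The direction with time was the same in both viruses for 16 of the 27 genes, 11 lower and 5 higher, and differed for 11. The share of all tested genes with the same direction in both viruses is not reported here, so this count has no background. In GPI-PLD cells 8 genes were higher and 19 lower at 12 h, with a median log2 difference of -0.11 (all tested genes 0.01). In LacZ cells 13 were higher and 14 lower, with a median of -0.00 (all tested genes 0.00). When each array was scaled to its 75th percentile, the LacZ split became 8 higher and 19 lower, with a median of -0.05 (all tested genes -0.04), and the GPI-PLD split stayed at 8 and 19. The same scaling gave 243 higher and 391 lower calls among all genes in LacZ cells, against 295 and 264 as reported, so the LacZ split depends on the scaling.

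**Figure D3:**
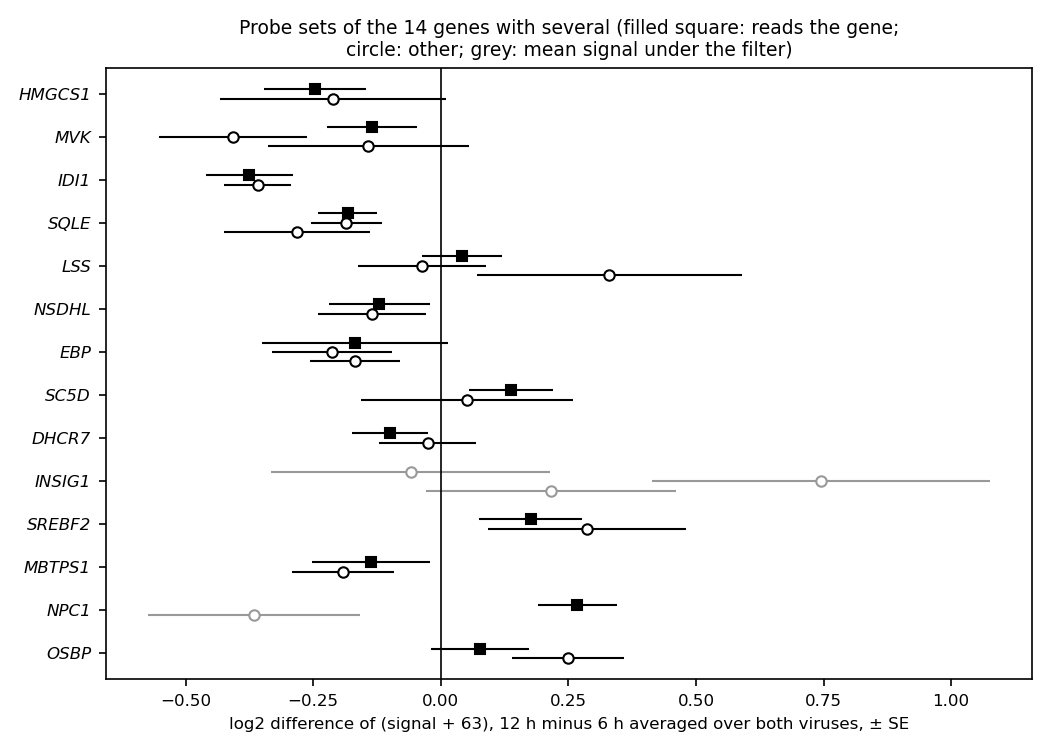
Log2 difference at 12 h over 6 h, averaged over both viruses, with SE, for every probe set of the 14 genes that have several; filled squares read the gene, open circles are its other probe sets, and grey ones have a mean signal under the filter. Both IDI1 and all 3 SQLE probe sets lie below 0, whereas the 2 NPC1 probe sets lie on opposite sides and the 3 INSIG1 probe sets, all grey, disagree.

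Probe sets of the same gene mostly pointed the same way with time. Of the 12 genes with several probe sets at or above the filter, 11 had all of them on 1 side of 0 with both viruses averaged, LSS being the exception. The count was 9 in GPI-PLD cells, with EBP, LSS and OSBP mixed, and 12 under LacZ. NPC1 and INSIG1 are not among the 12 because of probe sets under the filter, and their probe sets disagreed with both viruses averaged.

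A further set of 45 genes outside the list covered sterol metabolism, its regulators and some related lipid enzymes. It also holds the transcription factor genes NFYA, NFYB, NFYC and SP1, and FADS1, FADS2 and LPIN1. Of the 45, 29 were tested, and 2 of them fell and 0 rose with both viruses averaged (6.90%, against the 16.2% background). LBR, which encodes another reductase of the same step as TM7SF2 and a nuclear envelope protein, had mean signals of 5021 ± 569.5 in GPI-PLD cells at 12 h and 6403 ± 469.6 at 6 h, and of 5489 ± 414 in LacZ cells at 12 h and 6719.6 ± 811 at 6 h. Its averaged log2 difference was -0.32 ± 0.07 (adjusted p = 0.0022). TMEM97, a sterol-binding membrane protein of the sigma-2 receptor, had 11688 ± 2544 and 14137 ± 1631 in GPI-PLD cells at 12 h and 6 h, and 11584 ± 508 and 14399 ± 2159.7 in LacZ cells, with an averaged log2 difference of -0.30 ± 0.09 (adjusted p = 0.0283). In GPI-PLD cells alone LBR passed (-0.35 ± 0.10, adjusted p = 0.0237), 1 of 29 (3.45%, against 9.64%), and in LacZ cells alone 0 of the 29 did, against 4 at an unadjusted p under 0.05 (13.8%, where the background was 20.2%). The averaged TMEM97 call was lost without replicate 4 of GPI-PLD 6 h, 1 of LacZ 12 h or 3 or 4 of LacZ 6 h or under quantile normalization, each of which left 1 call, and with eBayes without trend and robust, where LPIN1 passed in its place. The LBR call in GPI-PLD cells was lost without replicate 1 or 4 of GPI-PLD 12 h or 1 or 3 of GPI-PLD 6 h, which left 0, and under quantile normalization (ERLIN2 passed) and eBayes without trend and robust (LPIN1 and MYLIP passed). In LacZ cells 1 gene passed without replicate 3 of LacZ 12 h (ABCG1) or 3 of LacZ 6 h (LBR).

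Between GPI-PLD and LacZ cells, 0 of the 27 sterol genes passed the limma test at 12 h, at 6 h or averaged over both times. The background was 0% of tested genes in each of the 3 comparisons, so these counts match the array as a whole. At an unadjusted p under 0.05 there were 0 of 27 at 12 h (background 7.2% of tested genes), 2 of 27 at 6 h (7.41%, against 4.62%) and 1 averaged over both times (against 4.18%). The median log2 difference of the 27 genes was -0.00 at 12 h, with 13 higher and 14 lower, and 0.03 at 6 h, with 17 higher and 10 lower.

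The intervals limit how large a difference could have been missed only as far as the spread from array to array reflects that between cultures. Whether the arrays stand for separate cultures is not in the labels. Each interval is for 1 gene, without adjustment over the 27. On the brightest probe set of each gene, the 95% interval at 12 h lay within a 1.5-fold difference either way for 23 of the 27 genes, all but EBP, SREBF1, PMVK and MBTPS2. At 6 h it lay within 1.5-fold for 24, all but INSIG2, EBP and SREBF1. For SREBF1 the interval on the log2 scale was -0.52 to 0.67 at 12 h and -0.21 to 0.98 at 6 h. These intervals do not cover the other probe sets. Between the viruses at 12 h, 3 of the 12 genes with several probe sets at or above the filter had all of them on 1 side of 0, and at 6 h 9 did. The second OSBP probe set, about as bright as the first, had a log2 difference of 0.33 ± 0.16 at 12 h (adjusted p = 0.732 over all probe sets), against -0.14 ± 0.14 on the first. The second MBTPS1 probe set had 0.34 ± 0.14 (adjusted p = 0.685), against -0.18 ± 0.16 on the first. For both genes the direction at 12 h thus depended on the probe set, and neither passed on either.

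**Figure D4:**
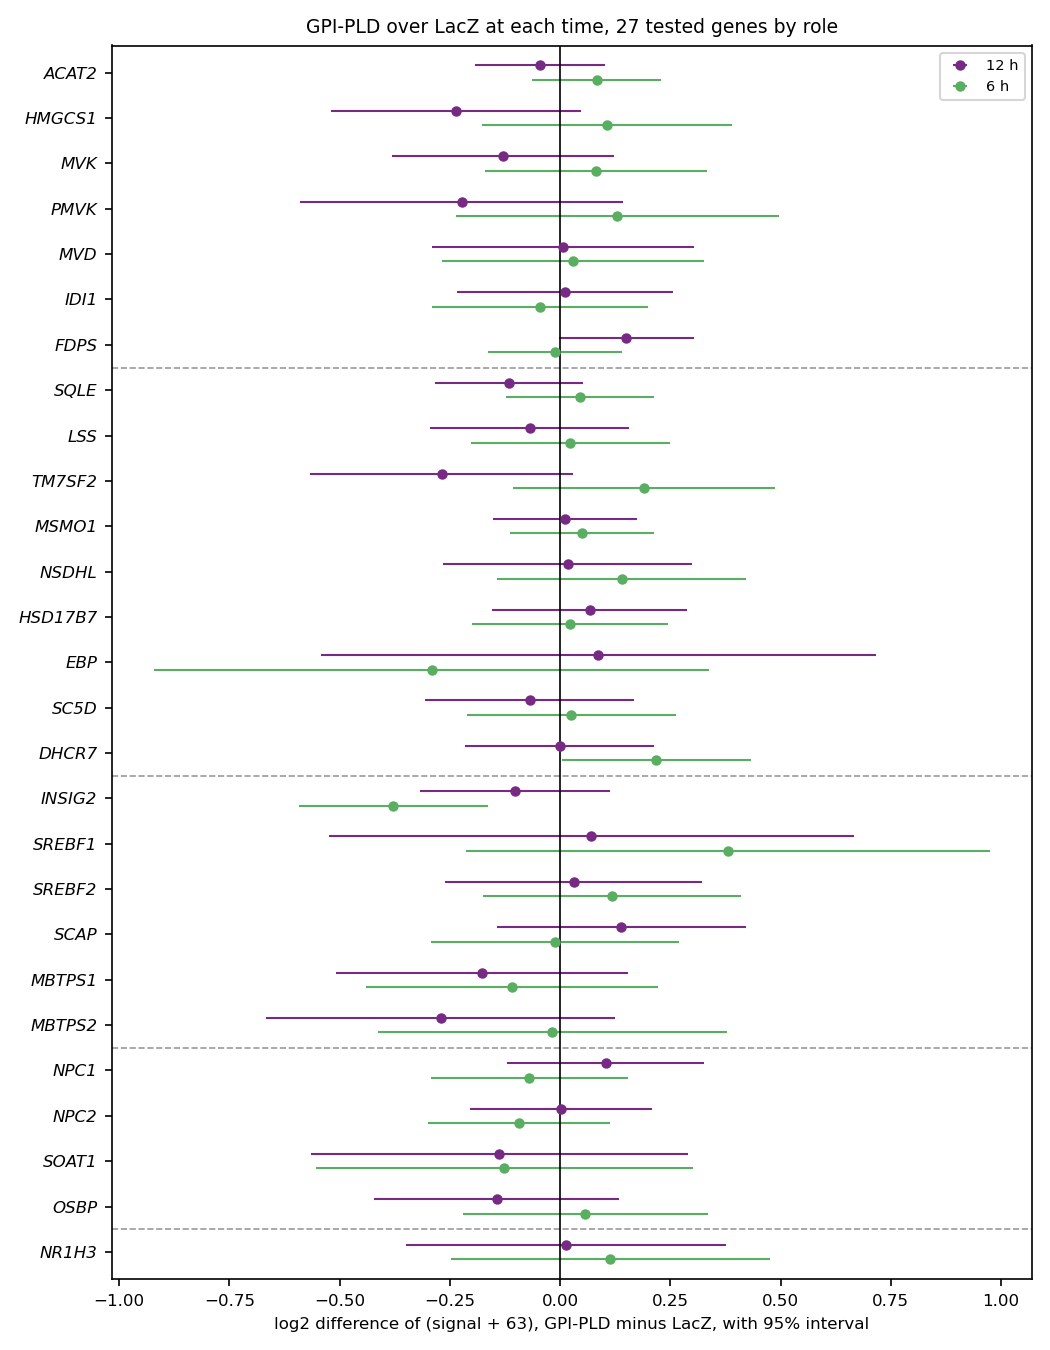
Log2 difference of signal + 63 in GPI-PLD over LacZ cells at 12 h and at 6 h, with 95% intervals from limma, for the 27 tested genes in order of role. The intervals of INSIG2 (below 0) and DHCR7 (above 0) at 6 h exclude 0 before adjustment over 8109 genes, and 0 of 27 passed after it.

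The 3 smallest p-values at 12 h belonged to FDPS, TM7SF2 and HMGCS1. FDPS, which builds farnesyl diphosphate, had signals of 8076.4, 9429.8, 8533.2 and 8689.5 on the GPI-PLD arrays at 12 h, against 7953.1, 7853.4, 7523.4 and 7895.6 in LacZ cells. At 6 h they were 7664, 7669.6, 7572.8 and 8162.1 in GPI-PLD cells, against 7096.8, 7970.5, 7874.7 and 8414.3 in LacZ cells. At 12 h every GPI-PLD array was above every LacZ array, and at 6 h the groups overlapped. The log2 difference of FDPS was 0.15 ± 0.07 at 12 h (adjusted p = 0.691) and -0.01 ± 0.07 at 6 h. TM7SF2 was the other gene whose groups did not overlap at 12 h, with GPI-PLD arrays at 1357 to 1600 below LacZ arrays at 1629.8 to 2072.4 and a log2 difference of -0.27 ± 0.14 (adjusted p = 0.716). Such separation at 12 h was found in 2 of the 27 genes and in 3.96% of tested genes, 2.11% with GPI-PLD above and 1.85% with it below. HMGCS1 had a log2 difference of -0.24 ± 0.14 at 12 h (adjusted p = 0.732) and 0.11 ± 0.14 at 6 h, with overlapping groups at both times.

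The 3 smallest p-values at 6 h belonged to INSIG2, DHCR7 and SREBF1. For INSIG2 the 4 GPI-PLD arrays at 6 h, at 2430.7 to 3293.6, all lay below the 4 LacZ arrays, at 3730.7 to 4201.2. Such separation was found in 3.07% of tested genes, and in 1.59% with GPI-PLD below. The log2 difference was -0.10 ± 0.10 at 12 h (adjusted p = 0.854) and -0.38 ± 0.10 at 6 h (adjusted p = 0.836). The LacZ 6 h arrays enter both this difference and the fall with time in LacZ cells. DHCR7, which reduces 7-dehydrocholesterol to cholesterol, had signals of 3794, 4092.1, 3704 and 4044.7 on the GPI-PLD arrays at 12 h, against 3547.7, 4292, 4126.4 and 3714.3 in LacZ cells. At 6 h they were 3902.9, 5427.3, 4718.3 and 4191.4 in GPI-PLD cells, against 4131.4, 3690.8, 4340.3 and 3431.5 in LacZ cells. The groups overlapped at both times, and the log2 difference was -0.00 ± 0.10 at 12 h (adjusted p = 0.998) and 0.22 ± 0.10 at 6 h (adjusted p = 0.998).

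SREBF1 encodes the SREBP most tied to fatty acid synthesis. Its signals were 300.4, 1067.4, 671.7 and 583.5 on the GPI-PLD arrays at 12 h, against 463.1, 367.4, 783.9 and 773.9 in LacZ cells. At 6 h they were 578.8, 796.9, 697.4 and 617.2 in GPI-PLD cells, against 822.6, 400.1, 411 and 448.6 in LacZ cells. The groups overlapped at 12 h, and at 6 h LacZ replicate 1 lay above every GPI-PLD array and the other 3 LacZ arrays below them all. The log2 difference was 0.07 ± 0.29 at 12 h (adjusted p = 0.973) and 0.38 ± 0.29 at 6 h (adjusted p = 0.998).

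**Figure D5:**
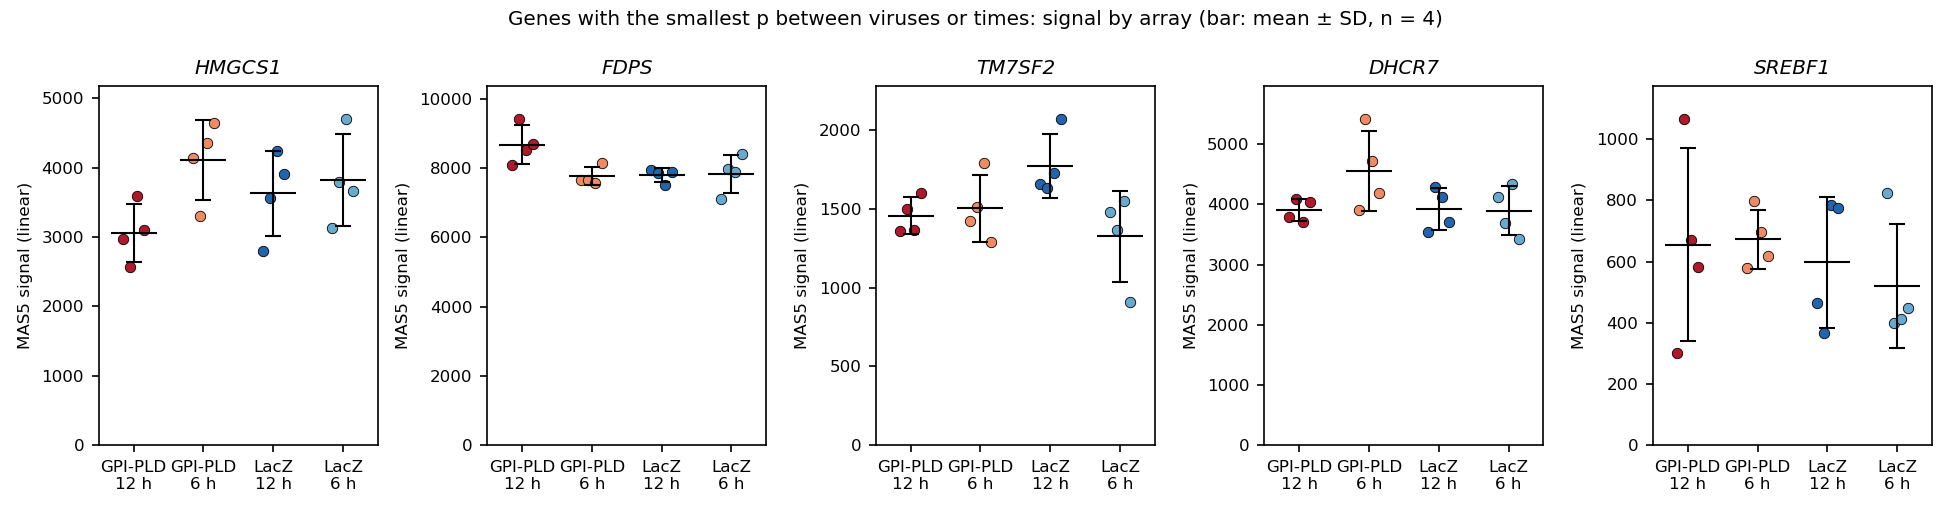
MAS5 signal (linear) on each array by virus and time for HMGCS1, FDPS, TM7SF2, DHCR7 and SREBF1; points are arrays and bars are the mean ± SD of 4. FDPS in GPI-PLD cells at 12 h (8076.4 to 9429.8) lies above the LacZ cells at 12 h (7523.4 to 7953.1), TM7SF2 shows the opposite order at 12 h, and SREBF1 spreads widely in each group but GPI-PLD 6 h.

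Whether the effect of GPI-PLD differed between the times was tested as the 12 h effect minus the 6 h effect. Of the 27 genes 0 passed, against a background of 0.0123%, which is 1 gene of 8109. At an unadjusted p under 0.05 there was 1 of 27, TM7SF2, against 7.58% of all tested genes. TM7SF2 had a difference of -0.46 ± 0.20 between the times on the log2 scale (adjusted p = 0.6). For INSIG2 this difference was 0.28 ± 0.15 (adjusted p = 0.699) and for HMGCS1 -0.34 ± 0.19 (adjusted p = 0.71). The genes called with time in 1 virus and not in the other are therefore not shown to differ between the viruses, since the same term tests both.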

How the data were processed

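For each of 16 arrays the authors deposited intensities as linear MAS5 signals (per the submitters' processing notes), measured from 10 µg of RNA. The 2% trimmed mean was 1000.3 to 1000.4 on every array, no column was left unused, and the scanner is not given in the sources used here. The number of arrays limits the precision.

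Signals were taken to log2(signal + 63), 63 being the 20th percentile of all signals, without rescaling, since array medians differed 1.24-fold (limit 1.5). Of 22283 probe sets 68 were controls, and 19065 carried 1 symbol, 1043 several and 2107 none. A current gene table held the gene IDs of 19059 and changed 0 symbols. Each gene took the brightest of its single-symbol probe sets by mean signal, and was tested where that mean was at least 208.5, the 40th percentile. A single MBTPS2 probe set shared with YY2 was left out. Limma (version 3.58.1, statmod 1.5.0, R 4.3.3) fitted the 4 groups and 7 contrasts, with lmFit and eBayes (trend, robust), 12 residual degrees of freedom and a median of 10.6 prior ones. The steps were tested on simulated data with added changes of 1.5-fold or more, larger than any change called here among the sterol genes. Recovery of smaller changes was not simulated. Tables were described with Python 3.11.15 and pandas 2.3.3 and plotted with matplotlib 3.10.9.

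The genes and lists were chosen with earlier results of these data known. Arrays of each gene called in any contrast are given, together with the 3 smallest p-values of each virus contrast and of the difference between times; the others have group means. Replicate numbers follow accession order and are names only. GAPDH 3′ to 5′ signal ratios were 0.864 to 1.12. Alternatives were quantile normalization, 75th percentile scaling, no pseudocount or 4 times it, no filter or the 60th percentile, array weights, averaging all probe sets of a gene, plain eBayes with neither trend nor robust, a fit of just the 2 groups compared, and omission of each array in turn. Choosing probe sets by their mean log2 value was added after seeing the data.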

Additional observations from a re-analysis of the deposited data

Results flagged for a closer look

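In 9 of 108 gene and group combinations 1 array stood far from the other 3, where chance alone flags about 1 in 20, or 5.4. In the mevalonate steps MVK read 2565.2 on LacZ 12 h replicate 4, against 2223.9 to 2257.2 on the other 3 arrays. PMVK read 1080.9 on LacZ 6 h replicate 2, against 587.4 to 620.6. MVD read 821.2 on GPI-PLD 6 h replicate 4, against 929.2 to 936.9. The same array was high for FDPS, at 8162.1 against 7572.8 to 7669.6.

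Among the later enzymes LSS read 4168.8 on LacZ 6 h replicate 2, against 2814 to 2941.9 on the other 3 arrays. SC5D read 6372.8 on GPI-PLD 12 h replicate 3, against 7766.1 to 7988. Of the control and transport genes SREBF1 read 822.6 on LacZ 6 h replicate 1, against 400.1 to 448.6. MBTPS1 read 1341.1 on GPI-PLD 6 h replicate 2, against 1721.8 to 1763.4. NPC2 read 7352.1 on LacZ 6 h replicate 3, against 5583.6 to 5865.7. Replicate 2 of LacZ 6 h and replicate 4 of GPI-PLD 6 h each stood apart for 2 genes, and none of these 9 combinations belongs to INSIG2, IDI1, SQLE or NPC1.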

How the results depend on the processing

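With both viruses averaged, 3 to 5 of the 27 genes changed with time over 26 alternatives, and INSIG2 and IDI1 were called in all of them. Counts between the viruses and for the difference between times were 0 in every alternative. In GPI-PLD cells the count with time (2) was 1 under quantile normalization and under 75th percentile scaling, 0 with no filter and 0 with eBayes without trend and robust, and 0 to 4 with each array left out. In LacZ cells the count (2) was 1 under quantile normalization, no filter and eBayes without trend and robust, and 1 to 2 with each array left out. NPC1 reversed under the mean of its probe sets, with log2 differences of -0.0694 in GPI-PLD cells, -0.0293 in LacZ cells and -0.0493 averaged, since its dim probe set ran the other way.

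Among the 29 tested genes of the further set, the GPI-PLD count with time (1) was 3 with the 60th percentile filter and 0 to 2 with each array left out. It was 2 under 75th percentile scaling, the mean of probe sets, eBayes without trend and robust and array weights. Their LacZ count (0) was 1 under 75th percentile scaling and 0 to 1 with each array left out, and their averaged count (2) was 1 under quantile normalization and 1 to 3 with each array left out. Over the 47 probe sets, a 40th percentile filter gave 2 calls in GPI-PLD and 3 in LacZ cells, against 1 in each without it. The share of all probe sets called in these 2 fits is not reported here, so the counts have no background to be read against. The causes were not tested. With 4 arrays a group, the median 95% half-width over the 27 genes was 0.28 log2 within 1 time or virus, and dim genes such as INSIG1 have no direction. No paired analysis was possible because the labels give no replicate numbers.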
